A study of Mus musculus with 6 samples.

Results

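Integrin αE (Itgae), integrin α1 (Itga1), Cd69, the sphingosine-1-phosphate receptor S1pr1 and the regulators Klf2, Runx3 and Rgs1 were read in T cell nuclei from mouse brain lesions. These 7 genes, of 32285 features in the deposited count matrices, were chosen by their known roles because they mark T cell residency in tissue or exit from it. Itgae was selected also on its measured UMIs, since it is induced by TGFβ and had been seen to be lower under ADWA11 in these same libraries, so its ADWA11 values below are a description and not a finding. All mice had a photothrombotic (PT) cortical injury, and lesions were taken on day 7 or day 21 after it (dpi, days post-injury). Ctrl mice were wild-type. ADWA11 mice were wild-type and received an antibody that blocks integrin αvβ8, on the day of injury and weekly after it. Tgfbr2-cKO mice carried Col1a2(creER) and Tgfbr2(flox), so the deletion was placed by the promoter of Col1a2, a fibroblast collagen gene, and not in all cells. It was induced with tamoxifen, and the labels do not say whether Ctrl or ADWA11 mice received tamoxifen. Each of the 6 groups was 1 library of DAPI+ nuclei that pooled 1 male and 1 female mouse, so no comparison has a replicate and no p-value is given.

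Itgae pairs with the β7 chain to form a receptor for E-cadherin, the adhesion molecule of epithelia, and Itga1 pairs with the β1 chain to bind collagen, chiefly collagen IV of basement membranes. Resident memory T cells of brain, gut and skin are commonly recognised by CD69, CD103 (the protein of Itgae) and CD49a (the protein of Itga1). CD69 binds the S1P receptor and takes it off the cell surface, S1pr1 is the receptor with which T cells follow sphingosine-1-phosphate (S1P) out of tissue, and Klf2 is a transcription factor that drives S1pr1. Runx3 is the transcription factor of the CD8 lineage and of tissue residency, and Rgs1 dampens chemokine receptor signalling.

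Levels are given as CPM, the unique molecular identifiers (UMIs) of a gene per 1000000 UMIs of all non-mitochondrial genes, summed over the named nuclei of a library. Where 3 values of 1 time stand together, they are those of Ctrl, ADWA11 and Tgfbr2-cKO in that order. Intervals are exact 95% Poisson intervals for CPM, exact Clopper-Pearson intervals for shares and exact conditional binomial intervals for log2 ratios. All cover counting error only, not the variation between mice. The CPM and ratio intervals treat UMIs as independent, so they leave out the variation between nuclei too and are too narrow where UMIs gather in few nuclei. In Ctrl at 7 dpi, for example, 139 Itga1 UMIs lay in 30.9% of 136 T nuclei.

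The 6 libraries held 7205 to 14246 barcodes and 64798965 to 140310354 UMIs. At 7 dpi the Ctrl library held 136 T nuclei, the ADWA11 library 151 and the Tgfbr2-cKO library 26, while at 21 dpi they held 273, 824 and 265, with median UMIs of 2235 to 3067. They were named from sub-clusters by marker genes as CD8-like (721 nuclei), CD4-like (506), regulatory-like (247) or gamma-delta-like (201). The gamma-delta-like nuclei made up 31.6% of T nuclei in Ctrl at 7 dpi, 10.6% in ADWA11 and 3.85% in Tgfbr2-cKO, and 19.0%, 2.18% and 26.8% at 21 dpi. Both Tgfbr2-cKO libraries stood apart by neuronal RNA, since 61.5% of their T nuclei at 7 dpi and 33.6% at 21 dpi held a UMI of a neuron marker, against 0.662% to 2.94% in the other 4 libraries. The summed level of 7 fibroblast markers in T nuclei was 591 to 1343 CPM in those 4 libraries and 56.0 and 76.1 CPM in the Tgfbr2-cKO libraries. Its part in the values below was not tested. In fibroblast nuclei Itgae itself stood at 1.84 to 3.64 CPM, but Itga1 stood at 110 to 253 CPM. The CD4-like name did not hold in the Tgfbr2-cKO library at 21 dpi, where 56 of 111 such nuclei had a Cd8a or Cd8b1 UMI and 12 had a Cd4 UMI, while in Ctrl at 21 dpi 7 of 92 had the first and 30 the second. At 7 dpi it was 8 and 8 of 44 in Ctrl and 2 and 19 of 43 in ADWA11, so the name was weak in that Ctrl library too and the CD4-like nuclei of the pair differed in make-up. One of the 2 CD8-like sub-clusters (number 5) also carried Cd4, Trdc and cell-cycle UMIs. Under ADWA11 more of its nuclei had a Cd4 UMI than a Cd8a or Cd8b1 UMI, 9 against 5 of 39 at 7 dpi and 9 against 8 of 36 at 21 dpi, so the CD8-like name did not hold for it in those libraries. The other (number 0) held 66 of 114 CD8-like nuclei in Ctrl at 21 dpi, 363 of 399 in ADWA11 and 18 of 72 in Tgfbr2-cKO, and at 7 dpi 19 of 44, 43 of 82 and 0 of 10, so the libraries differed in this split, and its part in the CD8-like values was not tested beyond the sub-cluster 0 values given beside them. Of 1675 T nuclei, 33 had a barcode sequence that also occurred in another library, and none was shared between T nuclei. Whole-gene Tgfbr2 UMIs do not check the deletion, which removes an exon and not the transcript: in fibroblast nuclei at 7 dpi Tgfbr2 stood at 332, 256 and 251 CPM, and at 21 dpi at 240, 202 and 198 CPM.

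On mm10 the genes lie at chr11:73090583-73147446 on the plus strand (Itgae), chr13:114953096-115101964 on the minus strand (Itga1), chr6:129267325-129275436 on the minus strand (Cd69), chr3:115710433-115715072 on the minus strand (S1pr1), chr8:72319033-72321656 on the plus strand (Klf2), chr4:135120652-135177990 on the plus strand (Runx3) and chr1:144242296-144249242 on the minus strand (Rgs1). Itgae overlaps Haspin on the other strand, and Itga1 overlaps Pelo and Gm49395 on its own strand, so some Itga1 UMIs cannot be told apart from theirs. The promoters of Runx3 and Itga1 are shown as the regulatory sequence of one residency regulator and of the collagen-binding integrin, each being the 250 bases before the annotated start from RefSeq on GRCm38.p6. Capitals mark CAGAC (the SMAD box, through which TGFβ signals reach DNA), TGTGGT (RUNX) or CACCC (KLF), searched on both strands.
Runx3, distal start, chr4:135120395-135120644, plus strand: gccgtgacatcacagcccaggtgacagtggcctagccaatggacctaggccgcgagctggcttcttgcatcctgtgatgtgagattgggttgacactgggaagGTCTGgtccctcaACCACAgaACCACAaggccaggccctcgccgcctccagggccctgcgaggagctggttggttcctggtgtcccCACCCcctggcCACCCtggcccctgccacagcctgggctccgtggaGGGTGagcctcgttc
Itga1, chr13:115101965-115102214, minus strand: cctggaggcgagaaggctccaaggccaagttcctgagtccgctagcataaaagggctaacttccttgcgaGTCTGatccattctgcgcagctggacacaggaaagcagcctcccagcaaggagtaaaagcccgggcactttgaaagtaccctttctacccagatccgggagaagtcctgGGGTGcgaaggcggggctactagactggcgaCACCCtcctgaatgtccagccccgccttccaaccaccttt
The Runx3 window held 1 SMAD, 2 RUNX and 3 KLF matches, and the Itga1 window held 1, 0 and 2. The window before the second annotated Runx3 start (chr4:135152295-135152544, not shown) held 1, 0 and 1. Among 32851 promoters of the same length, 42.2% held the SMAD letters, 14.0% the RUNX letters and 52.0% the KLF letters, and no binding was measured here.

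The 7 genes differed in how far they belonged to T nuclei. Over all libraries, 54.6% of Cd69 UMIs, 26.2% of Runx3 UMIs and 24.1% of Itgae UMIs lay in T nuclei, against 7.18% for Klf2, 4.85% for S1pr1, 3.54% for Itga1 and 3.36% for Rgs1. Itgae was highest in T nuclei, with a mean over libraries of 175 CPM (32.6 to 392), and in dendritic nuclei, with 151 CPM (44.5 to 322), and the ranges of these neighbours overlapped. Itga1 was highest in mural nuclei, the contractile cells around vessels, at a mean of 1484 CPM, with endothelial nuclei at 510 CPM and T nuclei at 355 CPM. Cd69 stood at 87.5 CPM in T nuclei and at 9.42 CPM in dendritic nuclei, and the means of neuron, astrocyte and oligodendrocyte nuclei were below 1 CPM. S1pr1 had its highest mean in endothelial nuclei at 142 CPM, and Klf2 stood at 94.3 CPM in endothelial and 92.0 CPM in T nuclei. Runx3 was at 376 CPM in NK-like and 244 CPM in T nuclei, and Rgs1 at 182 CPM in T and 104 CPM in myeloid nuclei.

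**Figure D1:**
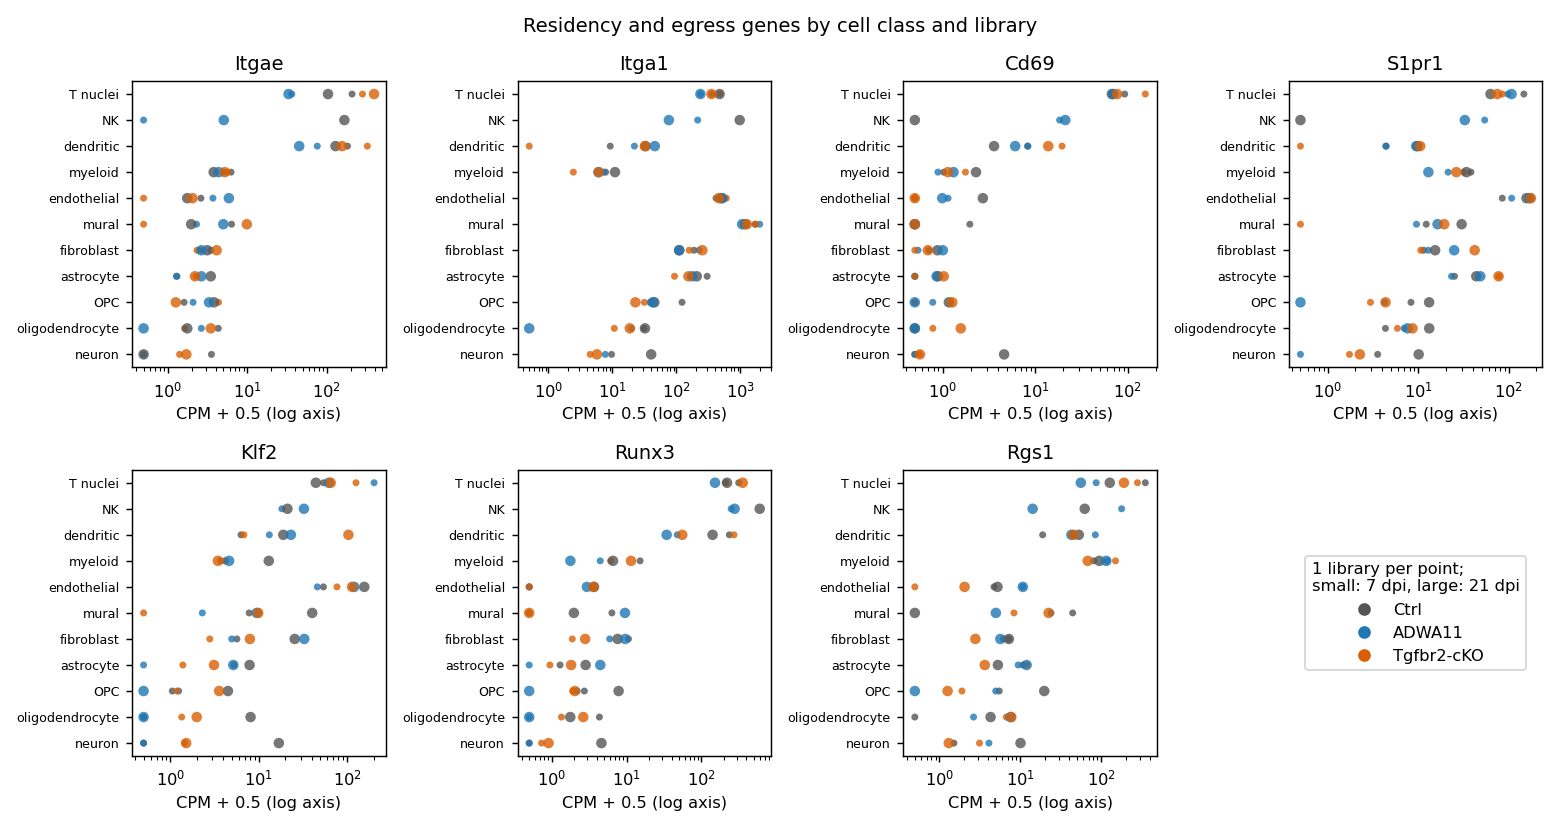
CPM (plus 0.5, log axis) of each gene by cell class, 1 point per library with at least 20 nuclei of the class, coloured by group and sized by day. Cd69 is largely limited to lymphocytes (87.5 CPM in T nuclei), while Itga1 is highest in mural nuclei (1484 CPM).

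Summed over T nuclei, Itgae was lower in both ADWA11 libraries than in Ctrl and higher in Tgfbr2-cKO at 21 dpi, Rgs1 was lower in both ADWA11 libraries, and Klf2 was higher in ADWA11 at 7 dpi. All 7 genes had at least 30 UMIs over the 2 libraries in each comparison, the minimum set for counting a gene. In ADWA11 against Ctrl at 7 dpi 3 of the 7 were past 2-fold (Itgae and Rgs1 lower, Klf2 higher), where 7.59% of all 5688 genes with 30 UMIs were past it. At 21 dpi 2 of the 7 were past 2-fold under ADWA11 (Itgae and Rgs1 lower), against 9.58% of 9116 genes. In Tgfbr2-cKO against Ctrl at 7 dpi 1 of the 7 was past 2-fold (Klf2, higher), against 23.9% of 3612 genes, in this library of 26 T nuclei. At 21 dpi it was 1 of the 7 (Itgae, higher), against 6.38% of 7654 genes. Between the Ctrl libraries, 3 of the 7 were past 2-fold at 21 against 7 dpi (Itgae, S1pr1 and Rgs1, all lower), against 5.9% of 6242 genes. The 2 ADWA11 and 2 Tgfbr2-cKO comparisons share the Ctrl library of their day. Itgae was part of the rule that chose the genes, so its place in the ADWA11 counts shows nothing.

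**Figure D2:**
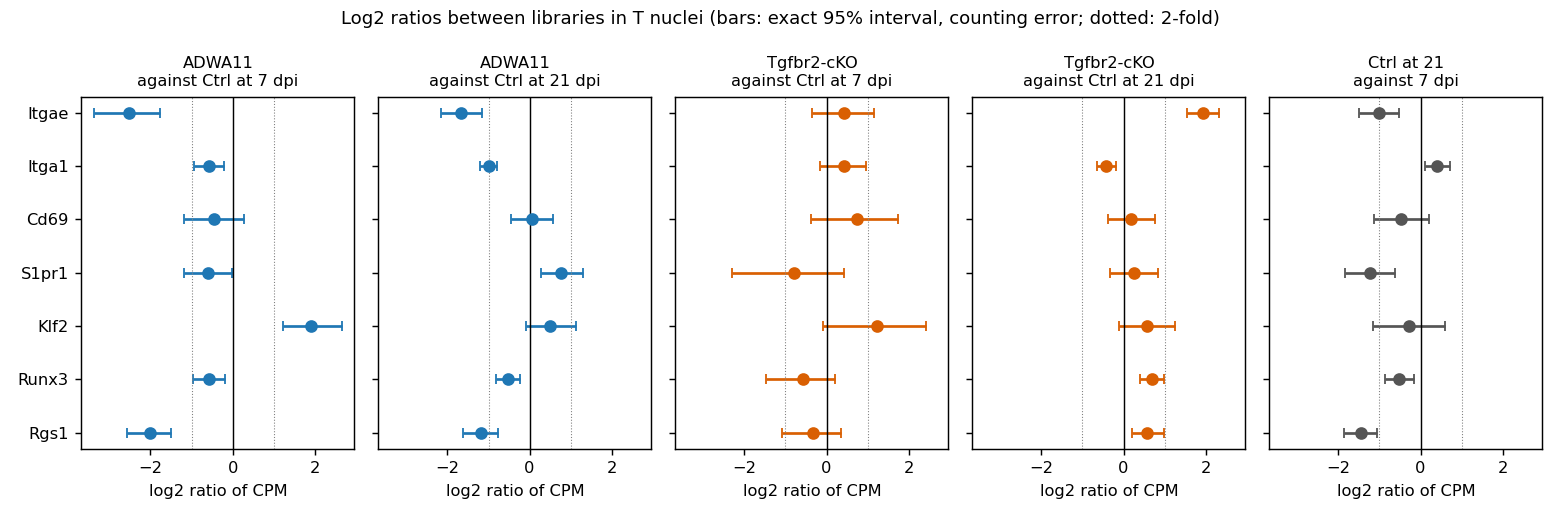
Log2 ratio of CPM in T nuclei for the 7 genes in each comparison, with exact 95% intervals for counting error and dotted lines at 2-fold. Itgae sits at -2.53 and -1.66 under ADWA11 and at 1.93 in Tgfbr2-cKO at 21 dpi.

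Itgae, the integrin chain of CD103, stood at 207 CPM (164 to 257, 81 UMIs) in T nuclei of Ctrl at 7 dpi, at 35.8 CPM (20.8 to 57.3, 17 UMIs) in ADWA11 and at 280 CPM (171 to 432, 20 UMIs) in Tgfbr2-cKO. At 21 dpi it stood at 103 CPM (80.0 to 131, 68 UMIs) in Ctrl, 32.6 CPM (25.3 to 41.3, 68 UMIs) in ADWA11 and 392 CPM (352 to 435, 350 UMIs) in Tgfbr2-cKO. Both ADWA11 libraries were thus the lowest of their day, and the Tgfbr2-cKO library at 21 dpi was the highest of all. The share of T nuclei with an Itgae UMI was 25.7%, 5.96% and 26.9% at 7 dpi and 13.9%, 5.46% and 40.4% at 21 dpi, in the order Ctrl, ADWA11, Tgfbr2-cKO. With each nucleus thinned to 1000 UMIs, and the 3 to 17 shallower T nuclei of each library left out, the shares were 14.6%, 2.84% and 13.0%, then 9.23%, 3.59% and 21.9%. Myeloid nuclei, which served as the level that free RNA can give, had an Itgae UMI in 1.32% to 2.88% at their higher median depth of 3348.5 to 6727 UMIs. The ADWA11 level was 5.79-fold lower than Ctrl at 7 dpi (log2 ratio -2.53, interval -3.38 to -1.77) and 3.16-fold lower at 21 dpi (-1.66, -2.17 to -1.15). The Tgfbr2-cKO level was 3.80-fold higher than Ctrl at 21 dpi (1.93, 1.55 to 2.32), and at 7 dpi the interval included 0 (0.44, -0.35 to 1.16). Within Ctrl, Itgae was lower at 21 than at 7 dpi (-1.01, -1.49 to -0.52), but without the gamma-delta-like nuclei the ratio was -0.14. At 21 dpi the Tgfbr2-cKO ratio was as large (1.98) without the T nuclei that held a neuron marker UMI.

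**Figure D3:**
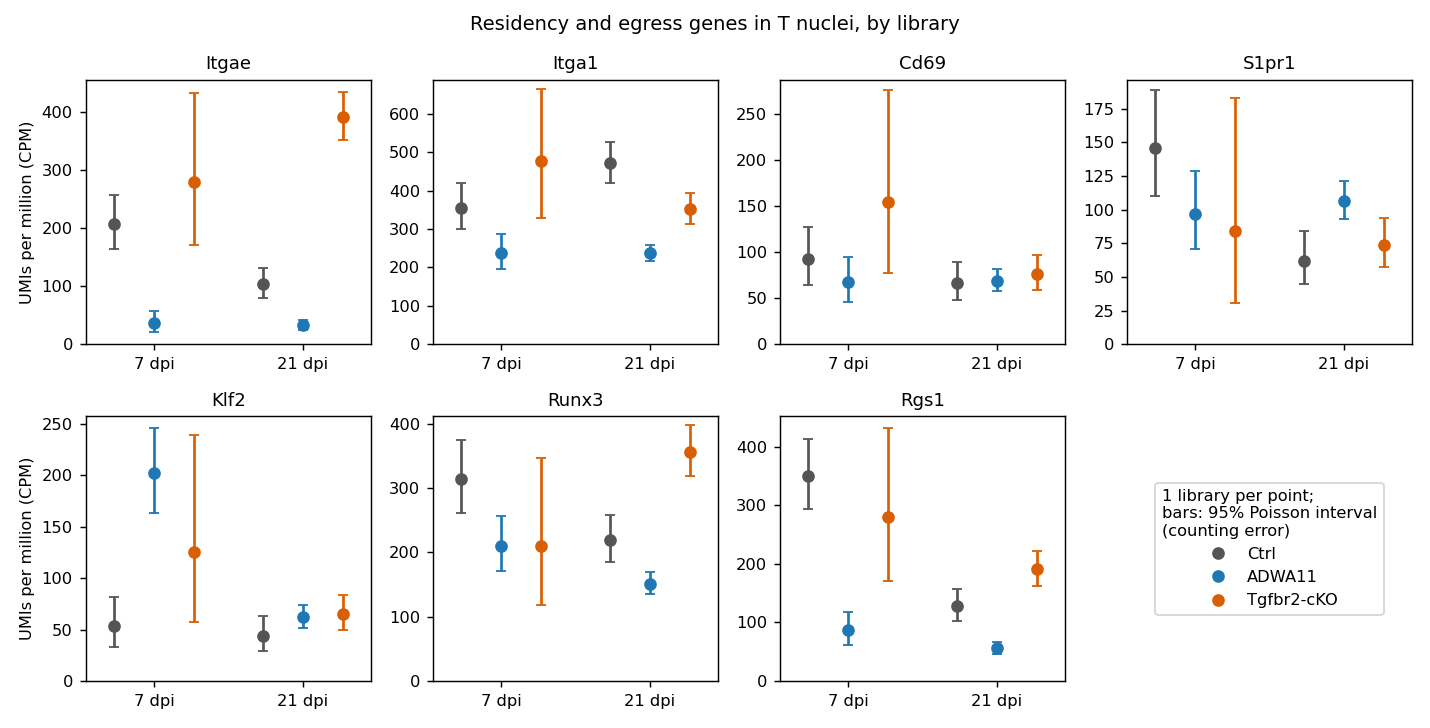
CPM of the 7 genes in T nuclei of each library, with exact 95% Poisson intervals, 1 library of 2 pooled mice per point. Itgae runs from 32.6 CPM in ADWA11 to 392 CPM in Tgfbr2-cKO, both at 21 dpi, while Cd69 stays between 66.6 and 154 CPM.

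The gamma-delta-like nuclei, a T cell type of barrier tissues and meninges that makes IL-17, held the highest Itgae levels among the subsets with at least 20 nuclei in Ctrl at both times and in Tgfbr2-cKO at 21 dpi. In Ctrl at 7 dpi Itgae stood there at 482 CPM (367 to 621), with a UMI in 58.1% of 43 nuclei. At 21 dpi it was 233 CPM (155 to 337) in Ctrl, with a UMI in 30.8% of 52 nuclei, and 738 CPM (632 to 856) in Tgfbr2-cKO, with a UMI in 76.1% of 71 nuclei. The latter ratio was 1.66 (1.08 to 2.29). The ADWA11 libraries held few such nuclei, with 4 Itgae UMIs in 16 nuclei at 7 dpi and 2 in 18 nuclei at 21 dpi. When they were left out, the ADWA11 ratio over all T nuclei moved from -2.53 to -1.45 at 7 dpi. These nuclei were a smaller part of the ADWA11 T nuclei and also held less Itgae there, and the parts of the 2 in that move cannot be told apart here. With equal weight to the 2 subsets that held at least 20 nuclei in both libraries, CD8-like and CD4-like, the ADWA11 ratio at 21 dpi was -2.41, a value without gamma-delta-like and regulatory-like nuclei.

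In CD8-like nuclei Itgae stood at 29.1 CPM in Ctrl and 34.7 CPM in ADWA11 at 7 dpi, which did not differ beyond counting error (0.25, -1.54 to 2.38). At 21 dpi it stood at 42.1 CPM in Ctrl, 13.5 CPM in ADWA11 (-1.64, -2.87 to -0.42) and 175 CPM in Tgfbr2-cKO (2.05, 1.16 to 3.05). In sub-cluster 0 alone the 21 dpi intervals included 0, at -1.17 (-2.78 to 0.69) under ADWA11 from 12 and 5 UMIs and at -0.19 (-3.58 to 2.42) in Tgfbr2-cKO from 2 UMIs in 18 nuclei. At 7 dpi sub-cluster 0 held 5 Itgae UMIs in 43 ADWA11 nuclei and 0 UMIs in 19 Ctrl nuclei. The Tgfbr2-cKO library at 7 dpi had 10 Itgae UMIs in 10 CD8-like nuclei. In CD4-like nuclei Ctrl held 11 UMIs at 7 dpi (92.7 CPM) and ADWA11 held 0 UMIs in 43 nuclei. Counting error puts the log2 ratio of this pair at no more than -1.27. The CD4-like nuclei of the pair differed in make-up, and Ctrl nuclei read by Cd4 alone (below) held 0 UMIs. At 21 dpi the CD4-like level was 115 CPM in Ctrl, 16.1 CPM in ADWA11 (-2.84, -4.21 to -1.61) and 284 CPM in Tgfbr2-cKO (1.31, 0.63 to 2.05), the last in nuclei that mostly lacked Cd4. Regulatory-like nuclei, which suppress other T cells, reached 20 nuclei in ADWA11 at 21 dpi, where Itgae stood at 78.0 CPM (56.9 to 104) over 205 nuclei. The other libraries held 1 to 15 regulatory-like nuclei with 1 to 34 Itgae UMIs, the 34 lying in 11 nuclei of Tgfbr2-cKO at 21 dpi.

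The subsets were also read by single marker genes in each T nucleus, without clusters. Among nuclei with a Trdc UMI and none of Cd4, Cd8a, Cd8b1 or Foxp3, Itgae stood at 410 CPM in Ctrl and 98.9 CPM in ADWA11 at 7 dpi (-2.05, -3.35 to -0.95), over 32 and 22 nuclei. At 21 dpi it stood at 220.5 CPM in Ctrl, 12.3 CPM in ADWA11 from 2 UMIs (-4.16, -7.32 to -2.09) and 708 CPM in Tgfbr2-cKO (1.68, 0.95 to 2.5). Among nuclei with a Cd8a or Cd8b1 UMI and none of Cd4, Foxp3 or Trdc, Itgae stood at 119 CPM in Ctrl and 32.5 CPM in ADWA11 at 7 dpi (-1.88, -3.99 to -0.13), so that here ADWA11 was lower where the CD8-like sub-clusters showed no difference. At 21 dpi such nuclei stood at 121 CPM in Ctrl, 11.4 CPM in ADWA11 (-3.40, -4.88 to -2.11) and 355 CPM in Tgfbr2-cKO (1.55, 0.86 to 2.31). Among nuclei with a Cd4 UMI and none of the other markers, Ctrl and ADWA11 held 3 and 5 UMIs at 21 dpi (-0.89, -3.25 to 1.80), so no difference was detectable at this depth. At 7 dpi such nuclei held 0 Itgae UMIs in 12 of Ctrl and 2 in 30 of ADWA11, too few to read a direction. Tgfbr2-cKO at 21 dpi held 28 UMIs in 26 such nuclei, against 3 in 45 of Ctrl (3.44, 1.74 to 5.80).

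**Figure D4:**
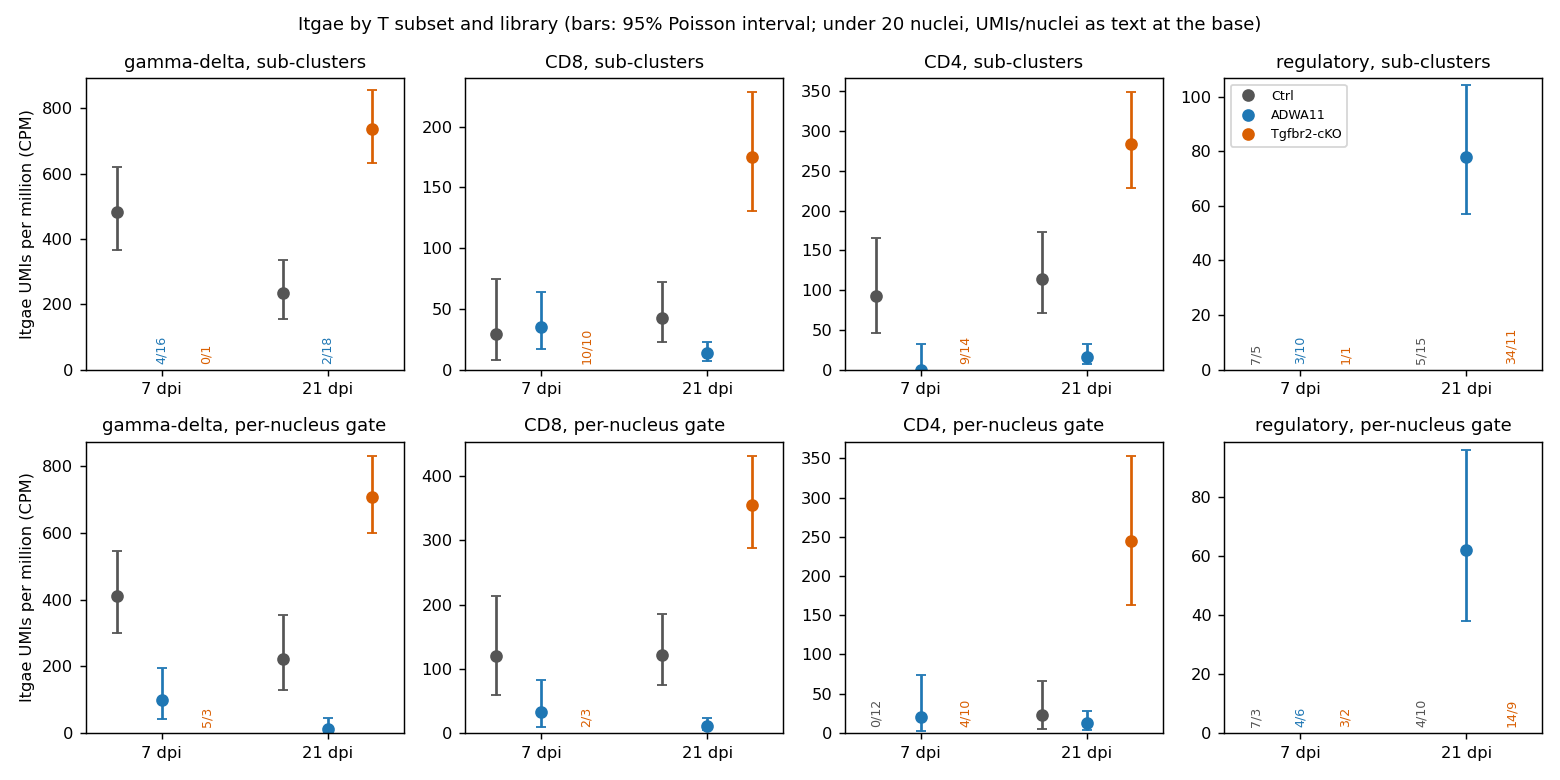
Itgae CPM by T nuclear subset and library with exact 95% Poisson intervals, and with UMIs over nuclei written at the base. Subsets under 20 nuclei in a library are given as UMIs and nuclei only, and among the subsets drawn as points gamma-delta-like nuclei of Tgfbr2-cKO at 21 dpi stand highest at 738 CPM.

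Outside T nuclei, Itgae is a known marker of the cross-presenting dendritic cells. In dendritic nuclei at 7 dpi it stood at 181 CPM in Ctrl, at 75.4 CPM in ADWA11 and at 322 CPM in Tgfbr2-cKO, and at 21 dpi at 128, 44.5 and 155 CPM. ADWA11 was the lowest of its day, by -1.27 (-1.67 to -0.88) and -1.52 (-1.95 to -1.09), a description of a gene selected for being lower there. The dendritic class was not split into types, and the part of their mix in the dendritic values here and below was not tested. In Tgfbr2-cKO the ratio was 0.83 (0.35 to 1.28) at 7 dpi and included 0 at 21 dpi (0.27, -0.17 to 0.72). The partner chain Itgb7 showed no such spread in T nuclei, standing at 424, 442 and 406 CPM at 7 dpi and at 338, 286 and 307 CPM at 21 dpi. Cdh1, which encodes E-cadherin, the ligand of CD103, had few UMIs in T nuclei and yet followed a like order. At 7 dpi it stood at 38.3 CPM in Ctrl, 4.21 CPM in ADWA11 and 56.0 CPM in Tgfbr2-cKO, and at 21 dpi at 65.1, 6.23 and 75.0 CPM. Its ADWA11 ratio was -3.19 (-6.36 to -1.08, 2 against 15 UMIs) at 7 dpi and -3.39 (-4.41 to -2.46) at 21 dpi.

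Itga1, the collagen-binding chain of CD49a, was lower in both ADWA11 libraries, though by less than 2-fold. In T nuclei at 7 dpi it stood at 355 CPM in Ctrl, 238 CPM in ADWA11 and 476 CPM in Tgfbr2-cKO, and at 21 dpi at 471, 236 and 352 CPM. At 7 dpi the ADWA11 ratio was -0.58 (-0.95 to -0.21), and it turned to 0.67 in female nuclei. It kept its sign in 12 of 15 alternatives, turning also with log-normalised clustering and without the CD4-like sub-cluster. At 21 dpi ADWA11 was 1.99-fold below Ctrl (log2 interval -1.20 to -0.79). The share of nuclei with a UMI ran from 21.4% to 41.4%, against 0.665% to 4.12% of myeloid nuclei. Gamma-delta-like nuclei held little Itga1, with 3 Itga1 UMIs in 43 nuclei in Ctrl at 7 dpi, 3 in 52 in Ctrl at 21 dpi and 1 in 71 in Tgfbr2-cKO at 21 dpi. Regulatory-like nuclei of ADWA11 at 21 dpi stood at 27.7 CPM for Itga1. By contrast CD8-like nuclei stood at 378 CPM in Ctrl and 239 CPM in ADWA11 at 7 dpi, and at 638.5, 323 and 366 CPM in Ctrl, ADWA11 and Tgfbr2-cKO at 21 dpi. In sub-cluster 0 the ADWA11 ratio was -0.12 (-0.82 to 0.62) at 7 dpi, from 58 UMIs in 43 nuclei and 25 in 19, and -1.21 (-1.51 to -0.90) at 21 dpi. CD4-like nuclei stood at 708 and 342 CPM at 7 dpi, and at 568, 333 and 631 CPM at 21 dpi. Among nuclei gated by Cd4 the ADWA11 ratio was -0.95 (-2.10 to 0.22) at 7 dpi and -1.22 (-1.79 to -0.63) at 21 dpi. Tgfbr2-cKO stood there at 149 CPM against 346 CPM in Ctrl at 21 dpi (-1.22, -2.12 to -0.39), below Ctrl unlike its CD4-like nuclei. Among nuclei gated by Cd8a or Cd8b1 the ADWA11 ratio at 21 dpi was -1.59 (-1.92 to -1.26).

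Runx3 stood at 314 CPM in Ctrl, 210 CPM in ADWA11 and 210 CPM in Tgfbr2-cKO T nuclei at 7 dpi, and at 220, 151 and 356 CPM at 21 dpi. ADWA11 was below Ctrl at both times, by -0.58 (-0.97 to -0.19) and -0.54 (-0.82 to -0.24), and Tgfbr2-cKO was above it at 21 dpi by 0.70 (0.41 to 0.99). A Runx3 UMI was seen in 27.1% to 54.0% of T nuclei, against at most 2.17% of oligodendrocyte nuclei. The 21 dpi difference of Tgfbr2-cKO was in the CD4-like nuclei, with 484 CPM against 146 CPM (1.73, 1.14 to 2.37). It was also in gamma-delta-like nuclei, with 253 CPM against 141 CPM (0.84, 0.04 to 1.71). CD8-like nuclei stood at 333 CPM against 324 CPM. Their ratios were -0.32 in sub-cluster 0 and 0.50 in sub-cluster 5, both intervals including 0. As the CD4-like nuclei carried Cd8a or Cd8b1 more often than Cd4 in that library, the single-gene reading was compared. It gave 0.66 (0.25 to 1.09) for nuclei with Cd8a or Cd8b1, 1.21 (0.11 to 2.41) for nuclei with Cd4 and 0.063 (-0.63 to 0.80) for nuclei with Trdc. In dendritic nuclei Runx3 stood at 236, 47.0 and 272 CPM at 7 dpi and at 140, 33.8 and 54.9 CPM at 21 dpi. The ADWA11 ratio there was -2.33 (-2.81 to -1.88) and -2.05 (-2.51 to -1.60).

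Cd69, an early activation and residency marker, had no ratio past 2-fold over all T nuclei. At 7 dpi its level in T nuclei was 92.0 CPM in Ctrl, 67.3 CPM in ADWA11 and 154 CPM in Tgfbr2-cKO, and at 21 dpi it was 66.6, 69.0 and 76.1 CPM. No comparison of Cd69 over all T nuclei had an interval that excluded 0, the largest being 0.74 (-0.38 to 1.75) in Tgfbr2-cKO at 7 dpi from 11 UMIs. The share of T nuclei with a Cd69 UMI was 9.34% to 23.1%, against at most 0.444% of myeloid nuclei. In CD4-like nuclei at 21 dpi ADWA11 was above Ctrl, at 120 CPM against 52.1 CPM (1.21, 0.23 to 2.34; by the Cd4 gate 2.38, -0.31 to 7.77, from 16 UMIs against 1), while in CD8-like nuclei it stood at 60.2 CPM against 90.8 CPM. In sub-cluster 0, which held most of the ADWA11 nuclei among these, the levels were 62.0 and 65.7 CPM (-0.08, -1.08 to 1.06).

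S1pr1, the exit receptor, stood at 146 CPM in Ctrl, 96.8 CPM in ADWA11 and 84.0 CPM in Tgfbr2-cKO T nuclei at 7 dpi, and at 62.1, 106 and 73.9 CPM at 21 dpi. Ctrl was thus the highest library at 7 dpi and the lowest at 21 dpi. At 7 dpi the ADWA11 ratio was -0.59 (-1.18 to -0.0039), and it turned to 0.79 in male nuclei. At 21 dpi it was 0.78 (0.29 to 1.29), and Ctrl was lower at 21 than at 7 dpi (-1.23, -1.85 to -0.63), though by -0.13 in male nuclei. A UMI was seen in 11.5% to 25.0% of T nuclei, against 2.02% to 6.21% of oligodendrocyte nuclei at a median of 3595.5 to 6327 UMIs. In the CD4-like sub-cluster S1pr1 stood at 202 CPM in Ctrl and 87.7 CPM in ADWA11 at 7 dpi (-1.21, -2.43 to -0.09), and at 72.9 CPM and 184.5 CPM at 21 dpi (1.34, 0.52 to 2.27). At 7 dpi 8 of the 44 Ctrl nuclei so named had a Cd4 UMI and 8 a Cd8a or Cd8b1 UMI, against 19 and 2 of the 43 ADWA11 nuclei. Among nuclei gated by Cd4, 12 Ctrl nuclei held 4 S1pr1 UMIs and 30 ADWA11 nuclei held 23 at 7 dpi (1.27, -0.28 to 3.26), and the 21 dpi ratio was 0.20 (-0.65 to 1.13), and both intervals included 0. In CD8-like nuclei it stood at 124 and 111 CPM at 7 dpi and at 58.3 and 87.2 CPM at 21 dpi. Spns2, the exporter that releases S1P from endothelium, stood in endothelial nuclei at 126, 66.2 and 71.3 CPM at 7 dpi and at 84.5, 86.7 and 60.7 CPM at 21 dpi.

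Klf2, which drives S1pr1, stood at 53.7 CPM in Ctrl, 202 CPM in ADWA11 and 126 CPM in Tgfbr2-cKO T nuclei at 7 dpi, and at 43.9, 61.8 and 64.9 CPM at 21 dpi. The ADWA11 library at 7 dpi was the highest, 3.76-fold above Ctrl (1.91, 1.22 to 2.67), and at 21 dpi the interval included 0 (0.49, -0.10 to 1.13). In male nuclei the 7 dpi ratio was 0.22, from 6 and 5 UMIs, and without sub-cluster 5 it was 1.01. Of the Klf2 UMIs in nuclei named CD8-like, 74 of 84 in ADWA11 and 10 of 10 in Ctrl at 7 dpi lay in that sub-cluster, whose ADWA11 nuclei more often had a Cd4 than a Cd8a or Cd8b1 UMI. There Klf2 stood at 105 CPM in Ctrl and 405.5 CPM in ADWA11 at 7 dpi (1.95, 0.99 to 3.07), and at 102 and 348 CPM at 21 dpi (1.77, 0.93 to 2.68). Among nuclei gated by Cd8a or Cd8b1 the 7 dpi ratio was -0.91 (-2.90 to 0.97), while among those gated by Trdc it was 3.93 (2.26 to 6.28), at 408 CPM against 26.7 CPM from 3 UMIs. That gate held 33 Klf2 UMIs in 22 ADWA11 nuclei. The gamma-delta-like sub-cluster did not show this rise, with 2 UMIs in 16 ADWA11 and 4 in 43 Ctrl nuclei (0.60, -2.87 to 3.40). In CD4-like nuclei at 21 dpi ADWA11 stood at 72.2 CPM against 20.8 CPM in Ctrl (1.79, 0.31 to 3.74), and by the Cd4 gate the ratio was 0.82 (-0.36 to 2.22). A Klf2 UMI was seen in 7.69% to 22.5% of T nuclei, against at most 2.76% of oligodendrocyte nuclei.

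Rgs1 stood at 350 CPM in Ctrl, 86.2 CPM in ADWA11 and 280 CPM in Tgfbr2-cKO T nuclei at 7 dpi, and at 127, 55.6 and 190 CPM at 21 dpi. Both ADWA11 libraries were the lowest of their day, 4.06-fold below Ctrl at 7 dpi (-2.02, -2.56 to -1.51) and 2.29-fold below at 21 dpi (-1.19, -1.61 to -0.77). Tgfbr2-cKO at 21 dpi was above Ctrl by 0.58 (0.20 to 0.98), and Ctrl was lower at 21 than at 7 dpi (-1.46, -1.87 to -1.06). The ADWA11 ratio at 21 dpi was -0.18 in female and -1.95 in male nuclei, and the Ctrl ratio was -1.94 in female nuclei and -0.13 in male nuclei, from 32 and 18 UMIs. The share of T nuclei with a UMI was 9.71% to 35.3%, against at most 4.35% of oligodendrocyte nuclei and 10.7% to 19.4% of myeloid nuclei, which also carry the gene. In CD8-like nuclei Rgs1 stood at 284 CPM in Ctrl and 86.7 CPM in ADWA11 at 7 dpi (-1.71, -2.5 to -0.95), and at 156, 45.7 and 313 CPM in Ctrl, ADWA11 and Tgfbr2-cKO at 21 dpi. In sub-cluster 0 the ADWA11 ratio at 7 dpi was -5.14 (-10.54 to -2.42), from 1 UMI in 43 nuclei against 14 in 19. At 21 dpi the ratio there was -0.65 (-1.76 to 0.61) under ADWA11 and 0.55 (-1.22 to 2.20) in Tgfbr2-cKO. Among nuclei gated by Cd8a or Cd8b1 at 21 dpi it was -2.02 (-2.84 to -1.22) and -0.065 (-0.76 to 0.65). In CD4-like nuclei it stood at 253 and 35.1 CPM at 7 dpi, and at 161.5, 32.1 and 125 CPM at 21 dpi, where ADWA11 was below Ctrl by -2.33 (-3.30 to -1.42). Among nuclei gated by Cd4 the 21 dpi difference of ADWA11 was not detectable (-0.18, -1.10 to 0.81). Tgfbr2-cKO stood there at 367 CPM against 105 CPM in Ctrl (1.80, 0.90 to 2.79), a direction other than that of its CD4-like nuclei. Regulatory-like nuclei at 21 dpi held 56 of the 116 Rgs1 UMIs of ADWA11 T nuclei (97.0 CPM, 205 nuclei) and 0 UMIs in the 15 such nuclei of Ctrl, where 3 counts would be 75.7 CPM. By the single-gene gate for regulatory nuclei the direction was the other. There Ctrl held 7 UMIs in 10 nuclei (259 CPM) and ADWA11 27 in 110 (83.8 CPM), a ratio of -1.63 (-2.86 to -0.18). Gamma-delta-like nuclei of Ctrl stood at 531 CPM at 7 dpi and 41.6 CPM at 21 dpi, from 5 UMIs (-3.67, -5.34 to -2.38). Those of Tgfbr2-cKO at 21 dpi stood at 129 CPM, above Ctrl by 1.63 (0.25 to 3.35). By the Trdc gate that ratio was 3.20 (1.28 to 6.29), from 50 against 2 UMIs. Dendritic nuclei had the other direction at 7 dpi, where Rgs1 stood at 84.2 CPM in ADWA11 and 18.4 CPM in Ctrl (2.19, 1.46 to 2.99).

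The nuclei of the male and the female mouse of each library were read apart by Xist and Y-linked UMIs. At 7 dpi Ctrl held 68 female and 35 male T nuclei, ADWA11 70 and 34, and Tgfbr2-cKO 10 and 8. At 21 dpi Ctrl held 127 and 79 and Tgfbr2-cKO 137 and 75, while ADWA11 held 187 and 449, mostly from the male mouse. The part of this make-up in the 21 dpi ADWA11 ratios was not tested beyond the values given by sex. In female nuclei Itgae stood at 264, 63.4 and 369 CPM at 7 dpi and at 124, 47.9 and 394 CPM at 21 dpi. In male nuclei it stood at 107, 9.51 and 415 CPM at 7 dpi, with 1 UMI in ADWA11, and at 21 dpi at 90.3 CPM in Ctrl and 402 CPM in Tgfbr2-cKO, with 36 UMIs in 449 ADWA11 nuclei. The Tgfbr2-cKO values at 7 dpi come from 8 UMIs in 10 female and 11 UMIs in 8 male nuclei. ADWA11 was below Ctrl in both sexes at both times, which is a description, since Itgae was selected on its ADWA11 values. Tgfbr2-cKO was above Ctrl in both sexes. Rgs1 stood at 464 CPM in female nuclei of Ctrl at 7 dpi and 176 CPM in male nuclei, against 88.8 and 105 CPM in ADWA11, so that the ratio was smaller in male nuclei (-0.75).

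Wider lists of residency, exit and TGFβ genes, drawn up with earlier results of these libraries known and holding the 7 genes where they belong, were counted in the same T nuclei. Their background is the share of all genes past 2-fold in each comparison, 7.59% and 9.58% under ADWA11 at 7 and 21 dpi, 23.9% and 6.38% in Tgfbr2-cKO and 5.9% in Ctrl, and the medians of all genes, which were 0.0048, 0.018, -0.21, 0.027 and -0.00029 in the same order. Of 20 residency genes, 11 had 30 UMIs in ADWA11 against Ctrl at 7 dpi, 2 were higher and 3 lower past 2-fold, and the median log2 ratio was -0.55. Beside Itgae and Rgs1, Ahr, a receptor for dietary and microbial ligands, was lower (-1.41), and the transcription factor Bhlhe40 (1.30) and the chemokine Xcl1 (1.15) were higher. At 21 dpi 19 residency genes were counted, 3 were higher and 7 lower, and the median was -0.68 against 0.018. Cdh1 (-3.39), Xcl1 (-2.56), Itgae and Gpr34 (-1.60) were the lowest, and Nr4a3 (2.01), Prdm1 (1.07), which encodes Blimp-1, and Nr4a1 (1.56, from 28 and 3 UMIs, interval including 0) were higher. In Tgfbr2-cKO at 21 dpi 1 of 16 residency genes was higher (Itgae) and 1 lower (P2rx7, -1.30), with a median of 0.27 against 0.027. In Tgfbr2-cKO at 7 dpi 1 of 9 was higher (Xcl1, 4.17) and none lower, and in Ctrl at 21 against 7 dpi 2 of 15 were higher (Gpr34, 1.25, and Prdm1, 1.02, both intervals including 0) and 2 lower (Itgae and Rgs1).

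Of 18 exit and circulation genes, 15 were counted in ADWA11 at 7 dpi, 3 were higher and 1 lower past 2-fold, and the median was 0.42. Beside Klf2, the S1P receptor S1pr4 was higher (1.5), as was Rasgrp2 (1.01, interval including 0), and the transcription factor Eomes was lower (-1.02). At 21 dpi 2 of 16 were higher, among them Eomes (1.36), and 1 was lower, Cx3cr1 (-1.66), with a median of 0.52. In Tgfbr2-cKO at 21 dpi 2 of 17 were higher, among them Ccr7 (2.89), the receptor that guides T cells to lymph nodes, and none was lower, with a median of -0.10. The summed level of dendritic markers, a list that includes Ccr7, was 113 CPM in those T nuclei and 30.3 CPM in Ctrl, and its part in the Ccr7 value was not tested. In Tgfbr2-cKO at 7 dpi 1 of 12 was higher (Klf2) and 4 were lower (Klf3, Tcf7, Eomes and Sidt1), each of the 4 from 1 to 8 UMIs in that library, with a median of -0.70. In Ctrl 3 of 16 were lower at 21 than at 7 dpi, among them Eomes (-2.56) and S1pr1, and none was higher.

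Of 17 genes of TGFβ reception, 13 were counted in ADWA11 at 7 dpi. Of the 13, 1 was above 0, against 2866 of all 5688 genes, the median was -0.53 and 3 were lower past 2-fold. These were Pmepa1 (-1.89) and Skil (-1.80), both targets and brakes of TGFβ signalling, and Ldlrad4 (-1.28), another brake. At 21 dpi 3 of 15 were lower, Pmepa1 (-2.49), Skil (-1.34) and the co-receptor Tgfbr3 (-1.26), with a median of -0.45, where 9.58% of all genes were past 2-fold. Of those 15 genes 6 were above 0, against 4728 of all 9116 genes. In Tgfbr2-cKO at 21 dpi 0 of 13 were past 2-fold and the median was -0.03, and at 7 dpi 1 of 13 was higher (Tgfbr3, 1.63) and 2 were lower (Smad3, -1.91, and Smad4, -1.78), with a median of -0.25, where 23.9% of all genes were past 2-fold and their median was -0.21. In Ctrl at 21 against 7 dpi 1 of 13 was higher (Tgfbr3, 1.03). Tgfbr2 itself stood in T nuclei at 396, 301 and 364 CPM at 7 dpi and at 471, 346 and 449 CPM at 21 dpi. Of 12 activation and exhaustion genes, Gzmb, the cytotoxic granule protease, was higher in ADWA11 at both times (2.56 and 2.63, the second from 39 against 2 UMIs), Icos was lower at 7 dpi (-1.39) and Tigit higher at 21 dpi (1.51). The medians of that list were 0.29 over 7 genes and 0.69 over 11 genes under ADWA11. At 21 dpi 0 of 8 genes of the list were past 2-fold in Tgfbr2-cKO. At 7 dpi in that genotype Gzmb (6.65) and Ctla4 (1.49) were higher and Tox (-2.21) and Cd44 (-1.36) lower among 6 genes, and in Ctrl Gzmk was higher at 21 than at 7 dpi (1.04). These are counts and medians of single libraries, with no test of any list.

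**Figure D5:**
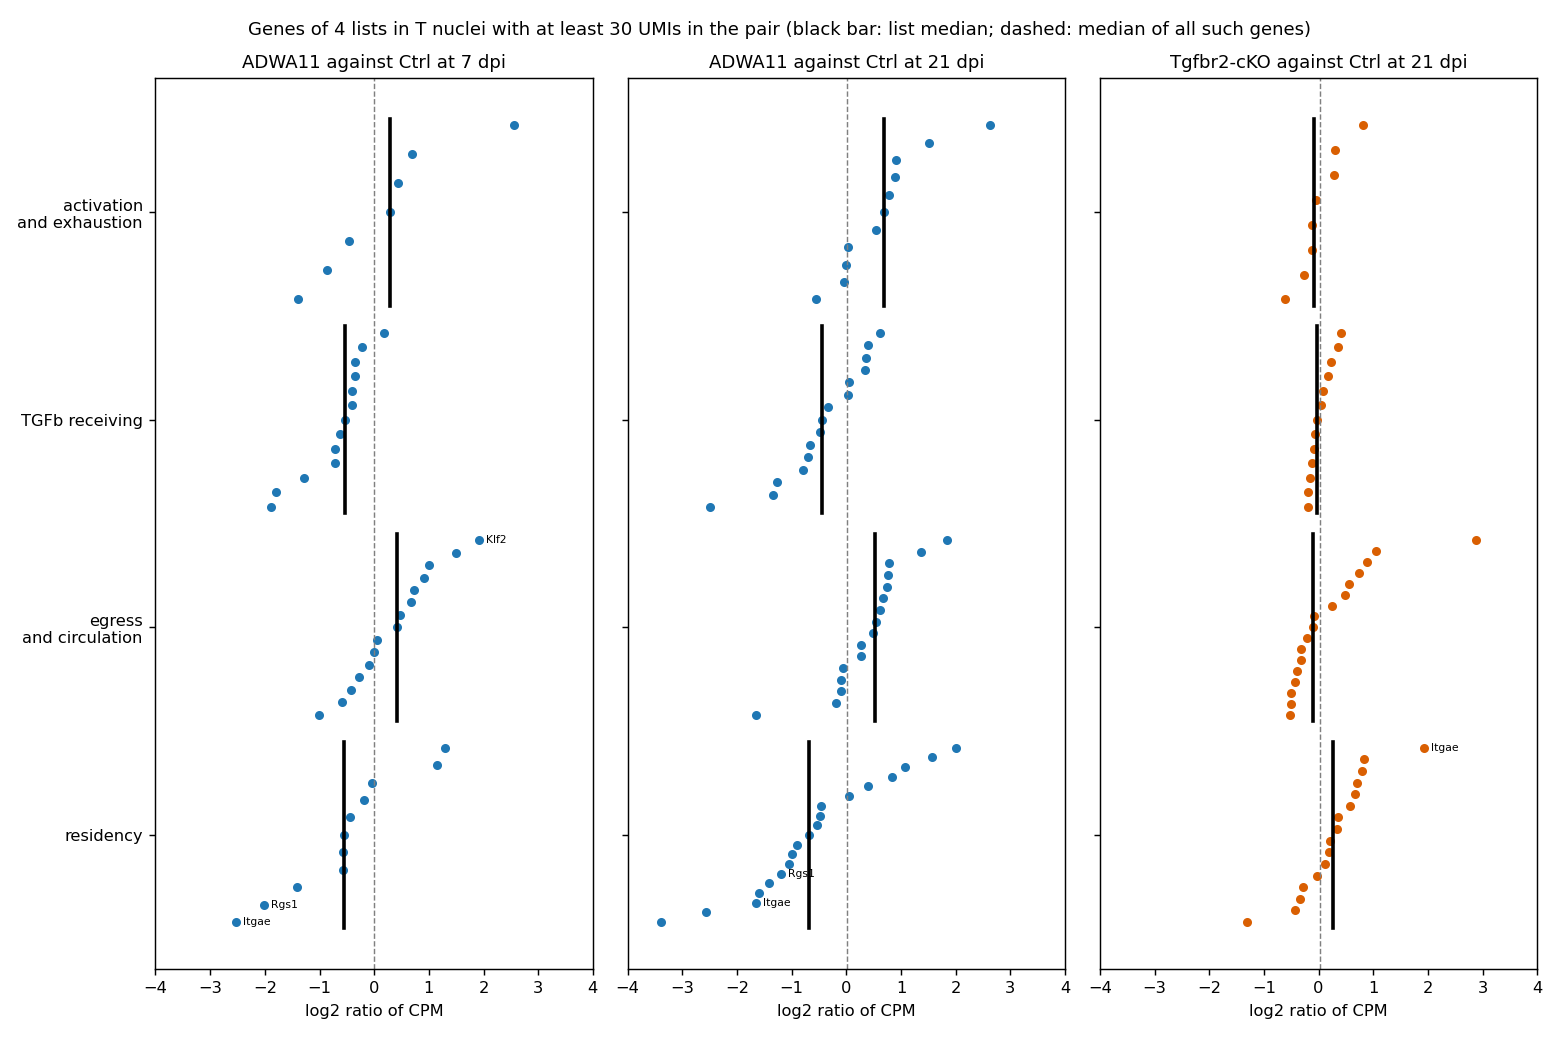
Log2 ratio of CPM in T nuclei for the genes of each list with at least 30 UMIs over the pair, 1 point per gene, the 7 genes labelled where past 2-fold with an interval that excluded 0, and a black bar at the list median. Under ADWA11 the residency median is -0.55 at 7 dpi and -0.68 at 21 dpi, and the exit and circulation medians are 0.42 and 0.52.

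The pattern of each gene over the 14 sums of 1 subset in 1 library that held at least 30 nuclei was compared with that of the 4738 genes with 200 UMIs in T nuclei, by Pearson correlation of log2(CPM + 10). These sums share libraries, depth and subset make-up, so the values are a description. Itgae was most like Prkag2 (0.87), Lpcat3 (0.86) and Epb41l2 (0.84), and Itga1 most like Mctp2 (0.95), Chn2 (0.94) and Gramd3 (0.92). Runx3 was most like Bcl2 (0.91), Sars (0.88) and Fam133b (0.84), and Rgs1 most like Chd4 (0.91), Sfpq (0.82) and Rgs10 (0.77). For Klf2 the nearest were Capzb (0.88), Reep5 (0.87) and Gzma (0.87), for S1pr1 Rtn4rl1 (0.86), Cmah (0.82) and Ifih1 (0.80), and for Cd69 Npc2 (0.85), M6pr (0.85) and Hcst (0.84). Among the 7 genes themselves Cd69 and Klf2 had the highest correlation (0.62) and Itgae and Itga1 the lowest (-0.55), while Itgae and Rgs1 stood at 0.53.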

How the data were processed

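Nuclei were isolated from PT lesions, sorted as DAPI+ and profiled with the 10x 3′ chemistry, and the authors aligned the reads to mm10 and counted UMIs with Cell Ranger (7.2.0 in the methods and matrix headers, 7.1.0 in the submitters' processing notes). The deposited values are raw UMI counts per gene and barcode, 1 matrix per library, with 67360 barcodes in all. Nuclear counts include intronic reads, so long genes gain UMIs, and levels were not compared between genes.

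Barcodes in the lowest or highest 2.5% of UMIs or genes, or the highest 2.5% of mitochondrial share, of their library were left out, which kept 61917. Counts were normalised with SCTransform (Seurat 5.3.0, sctransform 0.4.2, R 4.3.3) on 3000 variable genes without mitochondrial and sex-linked genes, reduced to 30 principal components and clustered by Louvain at a resolution of 0.5. The 2493 nuclei of T cell clusters were clustered again without the 7 genes and the list genes. A class was named "like" a type when at least 3 of its markers were seen in 5% of nuclei and at 2-fold the share of other nuclei, and more than for any other type. NK-like, ILC2-like, cycling and unnamed sub-clusters were left out, as was 1 sub-cluster of 264 nuclei in which 76.9% were called doublets, which left 1675 T nuclei. Doublets were called by simulated pairs at 0.8% per 1000 barcodes (5825 calls) and otherwise kept.

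CPM, shares, log2 ratios and their intervals were computed with numpy 2.4.6, pandas 2.3.3 and scipy 1.17.1, and edgeR 4.0.16 gave TMM factors for 1 alternative. The ratio and interval code was checked on simulated counts. A gene with 0 UMIs on one side was set at 3 counts. Subsets under 20 nuclei are given as UMIs and nuclei, apart from nuclei gated by single genes or split by sex. With 1 library per group no test across mice was made. Named genes were the 7 genes, up to 4 list genes per direction past 2-fold whose interval excluded 0, and the 3 genes nearest each of the 7 in pattern. List genes named with an interval including 0, and those named in Tgfbr2-cKO at 7 dpi to complete a count, were chosen after their values were seen. Values of 1 exit and circulation gene are not reported here. The 7 genes, the lists and the markers were chosen with earlier results of these data known. The T nucleus ratios and counts were recomputed under 14 other settings, and under 4 more chosen after seeing the data. RefSeq promoter sequences were matched by symbol for Runx3, Klf2 and Itga1. The Klf2 sequence is not printed here.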

Additional observations from a re-analysis of the deposited data

Results flagged for a closer look

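S1pr1 in T nuclei was on opposite sides of Ctrl under ADWA11 at the 2 times, with a log2 ratio of -0.59 at 7 dpi and 0.78 at 21 dpi. Both intervals of counting error excluded 0, but the upper limit at 7 dpi was -0.0039, and such intervals are too narrow where UMIs gather in few nuclei. In CD4-like nuclei the same pair of ratios was -1.21 and 1.34, but at 7 dpi those nuclei differed in make-up, with a Cd4 UMI in 8 of 44 in Ctrl and 19 of 43 in ADWA11. Among nuclei gated by Cd4 the ratios were 1.27 (-0.28 to 3.26, from 23 and 4 UMIs) and 0.20 (-0.65 to 1.13). Each ratio comes from 1 library per group, so the difference between the times was not tested. In male T nuclei the 7 dpi ratio was 0.79, from 16 UMIs in ADWA11 and 9 in Ctrl, and there the directions at the 2 times did not oppose each other.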

How the results depend on the processing

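Under the alternatives run, the Itgae ratio in T nuclei kept its sign in 15 of 15 under ADWA11 at 7 dpi (-3.50 to -1.45) and at 21 dpi (-2.41 to -1.19), at 21 dpi in Tgfbr2-cKO (1.62 to 2.20), and in Ctrl at 21 against 7 dpi (-1.39 to -0.14), and in 12 of 14 in Tgfbr2-cKO at 7 dpi (-0.84 to 1.95). As Itgae was selected for being lower under ADWA11 in these same libraries, the kept ADWA11 signs are a description and no support. At 7 dpi the ADWA11 ratio of Itgae was -3.50 in male nuclei and -1.45 without gamma-delta-like nuclei, and at 21 dpi it was -2.41 with equal weight to CD8-like and CD4-like nuclei. In Tgfbr2-cKO at 7 dpi it was 1.95 in male nuclei, 1.79 without gamma-delta-like nuclei and -0.84 without the 3 nuclei with the most Itgae UMIs in each library. In Ctrl at 21 against 7 dpi it was -0.25 in male nuclei and -0.14 without gamma-delta-like nuclei. The number of the 7 genes past 2-fold takes in only genes with 30 UMIs in the pair, so that in male nuclei it leaves out Itgae at 7 dpi and in Ctrl at 21 against 7 dpi. In ADWA11 at 7 dpi it went from 3 to 0 in male nuclei, and at 21 dpi from 2 to 1 without sub-cluster 5. In Tgfbr2-cKO at 7 dpi it went from 1 to 0 with Cd3 nuclei alone and in male nuclei, to 2 with all nuclei of the T cell clusters, with log-normalised clustering and without nuclei with a neuron marker, and to 3 without sub-cluster 1 and without the 3 top nuclei. In Tgfbr2-cKO at 21 dpi it went from 1 to 2 with log-normalised clustering and in female and male nuclei, and to 3 without sub-cluster 1. In Ctrl it went from 3 to 1 with all nuclei of the T cell clusters and without gamma-delta-like nuclei, and to 0 in male nuclei. Among ratios over all T nuclei whose own interval excluded 0, signs turned for Itga1 in ADWA11 at 7 dpi (0.13 with log-normalised clustering, 0.67 in female nuclei, 0.022 without sub-cluster 1), in Tgfbr2-cKO at 21 dpi (0.28 in male nuclei) and in Ctrl (-0.46 in male nuclei), and for S1pr1 in ADWA11 at 7 dpi (0.79 in male nuclei). By the per-nucleus gate in place of sub-clusters they turned in CD8 nuclei for Klf2 in ADWA11 at 7 dpi (-0.91), Rgs1 in Tgfbr2-cKO at 21 dpi (-0.065) and Itga1 in Ctrl at 21 against 7 dpi (-0.064), and in CD4 nuclei for S1pr1 in ADWA11 at 7 dpi (from -1.21 to 1.27), where the gate left 12 Ctrl nuclei, under the minimum of 20. In regulatory nuclei the sign turned for Rgs1 in ADWA11 at 21 dpi (from 0.36 or higher to -1.63), with under 20 Ctrl nuclei by either reading. The causes were not tested. TMM scaling moved the median of all genes by more than 0.1 in Tgfbr2-cKO at 7 dpi only (-0.17). Equal weight to subsets could not be had in Tgfbr2-cKO at 7 dpi, where no subset held 20 nuclei. No paired analysis was possible because each group is 1 library with no replicate number, and the ratios within female and male nuclei are given in its place. Ratios whose interval included 0 turned under some alternatives too, as for Cd69 in ADWA11 at 21 dpi (same sign in 8 of 15, -1.27 to 0.45) and at 7 dpi (14 of 15), for S1pr1 and Cd69 (13 of 15 each) and Klf2 (14 of 15) in Tgfbr2-cKO at 21 dpi, and for Klf2 (13 of 15) and Cd69 (14 of 15) in Ctrl. By the Cd4 gate in place of CD4-like nuclei, Itga1 (from 0.15 to -1.22) and Rgs1 (from -0.37 to 1.80) turned in Tgfbr2-cKO at 21 dpi. In Tgfbr2-cKO at 7 dpi each of the 7 genes turned in 2 to 7 of 14 alternatives. Depth limits the values of that library, whose 26 T nuclei held 6 to 34 UMIs of each gene.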

Other observations

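The NK-like nuclei, cytotoxic lymphocytes without a T cell receptor that were left out of the T nuclei, also carried Itga1 and Runx3. At 21 dpi Itga1 stood at 973 CPM (47 UMIs in 21 nuclei) in Ctrl and 75.6 CPM (33 UMIs in 179 nuclei) in ADWA11, a log2 ratio of -3.69 (-4.37 to -3.01). Runx3 in the same nuclei stood at 600.2 CPM in Ctrl and 277 CPM in ADWA11, a ratio of -1.11 (-1.71 to -0.48). The Tgfbr2-cKO library held 37 Itga1 and 54 Runx3 UMIs in 16 such nuclei. Itgae had 8 UMIs in the 21 Ctrl nuclei and 2 UMIs in the 179 ADWA11 nuclei at 21 dpi (-5.18, -8.45 to -2.85). At 7 dpi the libraries held 14 Ctrl and 20 ADWA11 NK-like nuclei, with 19 and 12 Itga1 UMIs (-1.11, -2.28 to 0.01) and 0 Itgae UMIs in either. These nuclei were named from 6 NK markers, and the make-up of the class was not compared further between libraries.

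Itgb8, the chain that ADWA11 blocks in its pair with αv, stood above the background share in T nuclei of ADWA11 at 21 dpi, with a UMI in 11.9% of them against 2.82% of myeloid nuclei, at a median of 2274.5 and 5153 UMIs. In Ctrl at 7 dpi, ADWA11 at 7 dpi and Tgfbr2-cKO at 21 dpi the shares of 2.94%, 2.65% and 2.64% were near those of the deeper myeloid nuclei (2.22%, 2.36% and 2.72%). By CPM the T nuclei of these libraries stood higher, at 10.2, 21.0 and 14.6 against 4.36, 3.79 and 5.20 in myeloid nuclei. The intervals overlapped in Ctrl at 7 dpi only, so the near shares do not show these values to be background. In Ctrl at 21 dpi the share was 4.76% (2.56% to 8.01%, 19 UMIs) against 2.64% of myeloid nuclei, and in Tgfbr2-cKO at 7 dpi it was 1 of 26 nuclei (3.85%) against 0.887%. At 7 dpi it stood at 10.2 CPM in Ctrl, 21.0 CPM in ADWA11 and 28.0 CPM in Tgfbr2-cKO, and at 21 dpi at 28.8, 156 and 14.6 CPM, the ADWA11 ratio at 21 dpi being 2.44 (1.77 to 3.19). Itgb8 was among the 10 genes that led the regulatory-like sub-cluster, and 205 of the 824 ADWA11 T nuclei at 21 dpi were regulatory-like against 15 of 273 in Ctrl. The part of this difference in make-up in the Itgb8 value was not tested.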
